A study of Homo sapiens with 6 samples.

Results

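The genes described here encode the machinery of mitosis and chromosome segregation, and they were compared in MDA-MB-231 cells grown on fructose or on glucose. The list holds 50 genes chosen by name. Each was read from the probe set that the array platform's annotation assigns to that gene alone, and the brightest such probe set was kept where there were several. This gave 49 measured genes of 18404 named genes on the array. CENPA, the centromeric histone, shares its probe set with a neighbouring gene symbol and was not analysed here. No filter on low values was applied to the members. The list, its classes and the lists of related genes were drawn up with earlier results of these data known. Counts and shares over them are therefore descriptions.

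MDA-MB-231 is an established human line derived from a triple-negative breast cancer. The fructose group held 3 cultures in DMEM with 10 mM fructose, which the labels call non-glycolytic. The glucose group held 3 cultures in DMEM with 25 mM glucose, which they call glycolytic. All cultures were kept in their medium for 25 days with regular passage, and cells were harvested for RNA near 70% confluency, roughly 24 hours after the medium was renewed. Replicates were batches of cells adapted separately, and 1 array was run per culture. The sugar and its concentration differed together, and a single cell line was used.

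Cells divide by building a bipolar spindle, attaching each pair of sister chromatids to it through kinetochores, and separating them once all are attached. Cyclin-dependent kinase 1 with its cyclins drives entry, the spindle checkpoint holds cells before anaphase, and a ubiquitin ligase, the anaphase-promoting complex, ends the block by marking securin and cyclin B for destruction. Most of these genes are transcribed in the later part of the cell cycle, so their RNA in a culture follows how many cells are cycling as well as how much each cell makes. In these bulk samples fewer dividing cells and less RNA per dividing cell cannot be told apart.

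Values are RMA intensities on a linear scale, and differences are fructose minus glucose on the log2 scale. The intensities ran from 2.15 to 9287 over all probe sets, with array medians between 33.1 and 34.8, and precision is limited by having 3 arrays a group. Fructose replicate 2 lay nearest to the glucose arrays on the first principal component of all probe sets (28.8% of the variance). The 5 markers of this line, VIM, CD44, CAV1, MSN and AXL, had mean intensities of 1595 to 2863. The 6 luminal, 4 measured leukocyte and 5 fibroblast markers had mean intensities between 4.59 and 79.5. The luminal marker GATA3 was the brightest of these, at percentile 59.9 of all genes, the fibroblast marker COL1A1 was next at percentile 47.2, and levels of different probe sets are only roughly comparable.

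Mitosis genes were mostly lower in fructose by small amounts. Of the 49 measured genes, 39 had a negative difference and 10 a positive one, with a median of -0.070 and a range from -0.39 to 0.16. None passed the limma test at an adjusted p of 0.05 over all 28230 tested probe sets, where 0.00354% passed (1 probe set), and the smallest adjusted p was 0.171. At an unadjusted p under 0.05, 12 members (24.5%) were lower, against 5.74% of all genes and 9.15% of the 6849 genes within the members' intensity range. At the same threshold 1 member was higher, where 8.53% of all genes and 11.1% of those in the intensity range were. Every fructose array lay below every glucose array for 20 of the 49 (40.8%), against 10.0% of all genes and 17.9% of those in the intensity range. The reverse, with every fructose array above, held for 4 members (8.16%), against 13.0% and 18.6%. All genes had a median difference of 0.022, with 43.5% lower in fructose. Genes in the members' intensity range had a median of 0.0033 with 49.1% lower. That range spans mean intensities of 89.9 to 2722, and its genes were not matched in intensity to the members one by one. The members' median on fructose replicates 1, 2 and 3 was -0.069, -0.041 and -0.14 relative to the glucose mean, where the glucose arrays lay between -0.0074 and 0.011. On the same fructose arrays genes in the members' intensity range had medians of 0.013, 0.026 and -0.028. For the members, leaving out fructose replicate 1, 2 or 3 gave medians of -0.079, -0.10 or -0.059. Leaving out glucose replicate 1 gave -0.11. Probe sets taken to be the array's controls had a median of -0.055, close to the members' own median, and their part in the result was not tested.

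The differences varied among the members, in sign and in size. The genes with the most negative differences were KIF15, TTK, ZWILCH, CENPE and SPC25, which act in spindle assembly, the checkpoint and chromosome attachment. Genes often used as markers of dividing cells varied too. CDK1, TOP2A and BIRC5 had differences of -0.19, -0.17 and -0.12 with all fructose arrays below all glucose arrays, CCNB1 and CCNB2 had -0.055 and -0.093, and MKI67, PLK1, AURKA, CDC20 and BUB1 lay between -0.016 and 0.024. KIF4A and SPC24 had the most positive differences, 0.16 each. The 95% intervals of the fit, not adjusted for the number of genes, reached no further than -0.61 for TTK and 0.33 for SPC24, and their median standard error was 0.071.

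**Figure D1:**
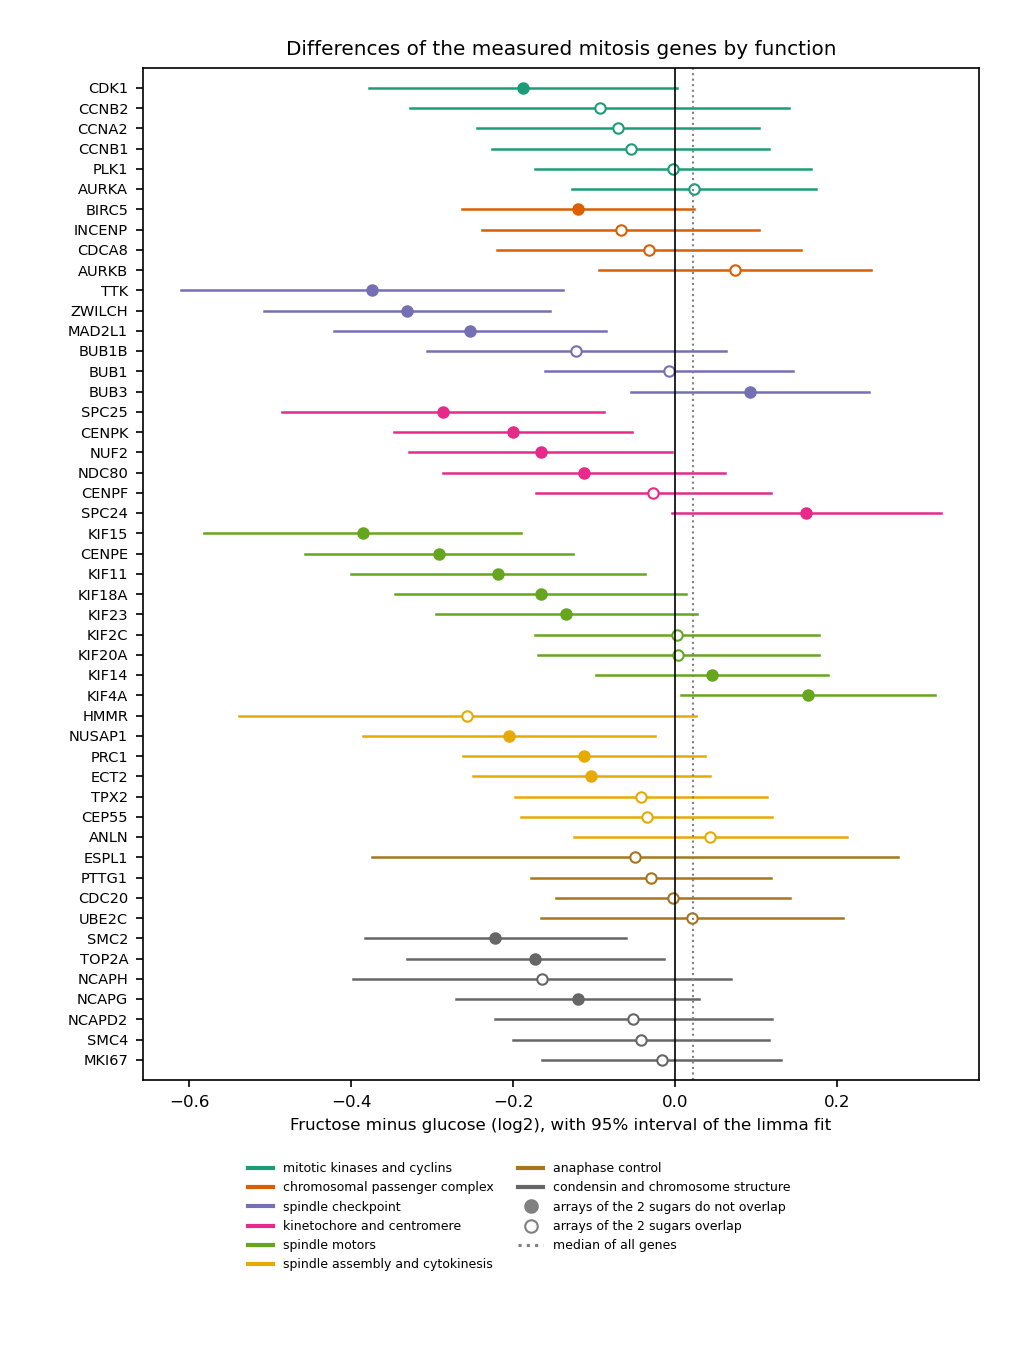
Difference between fructose and glucose for each of the 49 measured mitosis genes (x axis, log2, with its 95% interval), grouped by function and ordered by difference within a group. Filled points mark the 20 genes with all fructose arrays below and the 4 with all above the glucose arrays, and the dotted line is the median of all genes at 0.022.

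**Figure D2:**
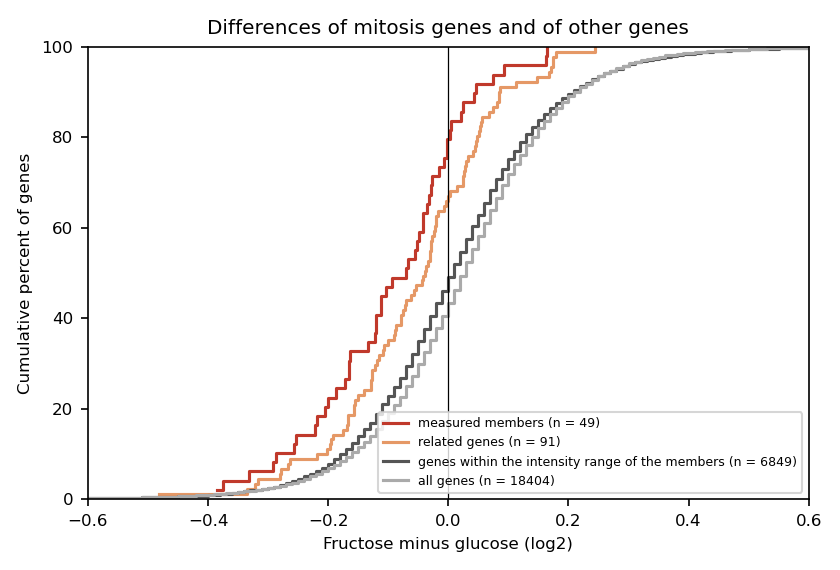
Cumulative percent of genes (y axis) at or below each log2 difference, fructose minus glucose (x axis). Curves are for the 49 members, 91 related mitosis genes, 6849 genes within the members' intensity range and all 18404 genes. The members' curve lies left of the curve of all genes except at the most negative differences. Below 0 are 79.6% of the members and 67.0% of the related genes, against 49.1% of the intensity-range genes and 43.5% of all genes.

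Many late cell cycle genes share promoter elements, among them the cell cycle genes homology region (CHR), which binds the DREAM and MuvB complexes, and CCAAT boxes, which bind NF-Y. Both were looked for in RefSeq promoters of GRCh38.p14, a window of 300 bases from 250 before to 50 after the gene start, with the first listed start of a gene. The letters searched were TTTGAA or TTCGAA for the CHR and CCAAT for the box, on both strands. Of the 50 genes 44 matched, and AURKA, BIRC5, BUB3, TTK, TPX2 and UBE2C were not searched. CHR letters stood in 33 of the 44 (75.0%), against 16.6% of 27305 promoters, and CCAAT in 34 (77.3%), against 35.7%. In 2 of the 44 the letters of a CHR and a CCAAT overlapped.

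Promoters are shown for the 5 members with the smallest p whose window held either motif. Among the genes with the most negative differences, CENPE held neither motif in its window and TTK was not searched. Capitals mark CHR letters (TTTGAA, or TTCAAA where it lies on the opposite strand) and CCAAT (or ATTGG).
KIF15 (chr3:44761544-44761843, plus strand): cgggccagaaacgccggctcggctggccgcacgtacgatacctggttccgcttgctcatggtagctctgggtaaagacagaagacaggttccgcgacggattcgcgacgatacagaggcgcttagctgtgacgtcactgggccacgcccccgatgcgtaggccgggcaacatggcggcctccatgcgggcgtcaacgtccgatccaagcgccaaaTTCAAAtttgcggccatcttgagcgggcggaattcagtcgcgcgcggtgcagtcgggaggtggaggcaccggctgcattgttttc
ZWILCH (chr15:66505076-66505375, plus strand): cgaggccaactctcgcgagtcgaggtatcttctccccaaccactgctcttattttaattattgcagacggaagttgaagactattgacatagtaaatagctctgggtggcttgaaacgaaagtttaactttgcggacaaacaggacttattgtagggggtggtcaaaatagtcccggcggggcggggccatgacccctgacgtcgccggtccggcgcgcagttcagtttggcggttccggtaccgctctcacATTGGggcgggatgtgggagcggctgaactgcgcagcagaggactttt
MAD2L1 (chr4:120066799-120067098, minus strand): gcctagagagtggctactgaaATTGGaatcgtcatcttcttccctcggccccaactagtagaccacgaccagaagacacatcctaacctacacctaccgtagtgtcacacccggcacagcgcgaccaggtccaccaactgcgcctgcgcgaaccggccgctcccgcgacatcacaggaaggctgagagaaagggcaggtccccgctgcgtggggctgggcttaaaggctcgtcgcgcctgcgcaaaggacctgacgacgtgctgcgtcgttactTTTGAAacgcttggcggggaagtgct
SPC25 (chr2:168890381-168890680, minus strand): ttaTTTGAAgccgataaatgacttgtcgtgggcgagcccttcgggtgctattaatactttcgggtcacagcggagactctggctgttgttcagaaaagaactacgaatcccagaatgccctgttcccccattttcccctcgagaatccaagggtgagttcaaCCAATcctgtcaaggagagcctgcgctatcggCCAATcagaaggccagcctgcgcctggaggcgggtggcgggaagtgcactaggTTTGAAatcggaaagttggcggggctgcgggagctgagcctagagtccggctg
SMC2 (chr9:104094059-104094358, plus strand): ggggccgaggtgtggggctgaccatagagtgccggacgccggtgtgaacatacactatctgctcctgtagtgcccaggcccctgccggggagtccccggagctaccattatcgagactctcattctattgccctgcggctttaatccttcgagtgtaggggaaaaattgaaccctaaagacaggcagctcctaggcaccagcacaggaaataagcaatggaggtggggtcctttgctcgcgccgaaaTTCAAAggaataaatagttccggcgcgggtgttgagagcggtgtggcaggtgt
KIF15 carries its CHR letters 35 bases before the start. SPC25 has a CHR across the start, at -3, with CCAAT at -56 and -88, and a further CHR at -247. The SMC2 CHR also spans the start, at -3, whereas that of MAD2L1 begins at base 25 after it. ZWILCH had no CHR letters in this window and a single CCAAT just after the start.

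Among measured members, the 32 with CHR letters had a median difference of -0.11 with 29 lower in fructose, and the 11 without had -0.055 with 7 lower. The members with and without the letters overlapped over most of their range, and the difference between them was not tested. Over all 14230 matched genes the medians were 0.0095 for 1898 genes with CHR letters and 0.024 for 12332 without. For CCAAT the member medians were in the other order, with -0.067 in the 33 members that held it and -0.12 in the 10 that did not. Of these 33 and 10 members, 28 and 8 were lower in fructose. Over all matched genes the medians were 0.016 for 5162 with CCAAT and 0.025 for 9068 without, the same order as for the CHR. A match of letters is a description and not a bound site.

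**Figure D3:**
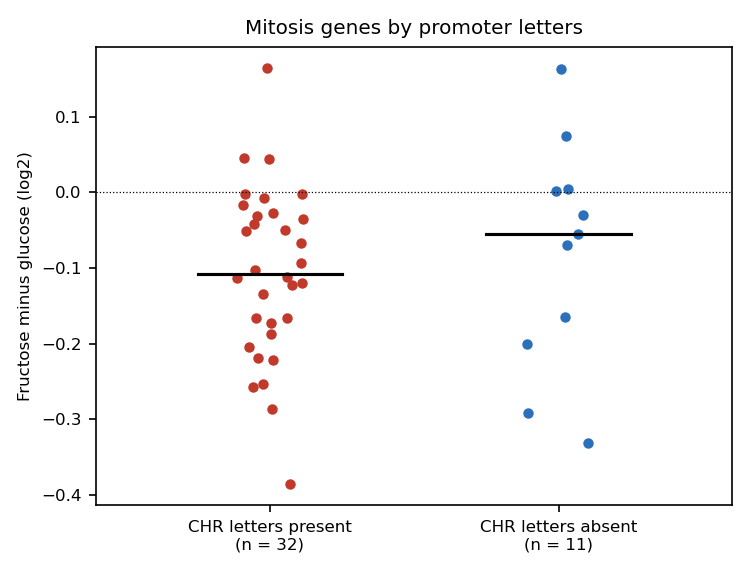
Log2 difference, fructose minus glucose (y axis), of the members with CHR letters in the promoter window (n = 32) and without (n = 11). Points are genes and bars are medians, at -0.11 and -0.055, and the points of both columns overlap.

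The mitotic kinases and cyclins include the engine of mitotic entry. Of 6 genes 5 were lower in fructose and 1 higher, with a median of -0.062. CDK1, the catalytic subunit that binds the A and B cyclins, had intensities of 293, 323 and 275 in fructose and 344, 326 and 343 in glucose. The groups did not overlap, although fructose replicate 2 lay just under the lowest glucose array, and the difference was -0.19 (SE 0.081, adjusted p = 0.387). CCNA2, the cyclin of S phase and early mitosis, had 597, 623 and 551 in fructose and 613, 639.6 and 605 in glucose, with overlapping groups and a difference of -0.070. CCNB1, the main mitotic cyclin, gave 1333, 1359 and 1223 in fructose and 1353, 1309 and 1402 in glucose. Its groups overlapped as well (-0.055, 95% interval -0.23 to 0.12). CCNB2, a second B cyclin, read 491, 448 and 391 in fructose and 447, 470.1 and 497 in glucose, and its highest and lowest fructose arrays enclosed 2 of the glucose arrays (-0.093). These cyclins depended on fructose replicate 3, without which CCNB2 was at -0.0057, CCNB1 at -0.0089 and CCNA2 at -0.022. At the other end, CCNB2 reached -0.17 without fructose replicate 1, and CCNB1 and CCNA2 reached -0.085 and -0.11 without fructose replicate 2.

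The kinases that act beside CDK1 had differences near 0. PLK1, which matures centrosomes and promotes mitotic entry and exit, had 555, 590.5 and 541 in fructose and 554, 543 and 592 in glucose, a difference of -0.0024 (95% interval -0.17 to 0.17). AURKA, the centrosomal Aurora kinase, had 552, 584 and 577 in fructose and 561, 551 and 572 in glucose, and differed by 0.024 (95% interval -0.13 to 0.17). For both genes the groups overlapped, and the sign for PLK1 was positive when fructose replicate 1, fructose replicate 3 or glucose replicate 3 was left out. The median of this class depended on single arrays, at -0.0073 without fructose replicate 3 and -0.094 without fructose replicate 2.

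The chromosomal passenger complex places Aurora B at centromeres and then at the spindle midzone, where it corrects wrong attachments and prepares cytokinesis. Its 4 subunits had a median of -0.050, with 3 lower and 1 higher. BIRC5, survivin, which targets the complex, had 1781, 1788 and 1746 in fructose and 1924, 1906 and 1946 in glucose. These groups did not overlap and were tight, and the difference was -0.12 (SE 0.061, adjusted p = 0.456). A second BIRC5 probe set differed by -0.022, so the 2 probe sets have the same sign and unequal size. INCENP, the scaffold, had 101, 95.2 and 89.5 in fructose and 102, 97.4 and 99.5 in glucose, with -0.067 and overlapping arrays. AURKB, the kinase itself, had 986, 1071 and 999 in fructose and 939, 949 and 1015 in glucose, and its groups overlapped with a positive difference of 0.074. CDCA8, borealin, differed by -0.032. INCENP was at -0.023 without fructose replicate 3 and at -0.11 without fructose replicate 1, and AURKB was at 0.038 without fructose replicate 2. Leaving out fructose replicate 3, fructose replicate 2 or glucose replicate 3 moved the class median to -0.011, -0.079 or -0.032.

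The spindle checkpoint class had the most negative median of the 8 classes, -0.19, with 5 of 6 genes lower. TTK, the kinase MPS1 that starts checkpoint signalling at unattached kinetochores, had 191, 215 and 170.2 in fructose and 239.9, 263 and 243 in glucose. All fructose arrays were below all glucose arrays, and the difference was -0.37 (SE 0.10, adjusted p = 0.226), or 22.9% less on the linear scale. ZWILCH, a subunit of the RZZ complex that recruits MAD1 and dynein to kinetochores, had 214, 223 and 202 in fructose and 252, 276 and 275 in glucose. Again the groups did not overlap, and the difference was -0.33 (SE 0.075, adjusted p = 0.188). MAD2L1, which as MAD2 binds and blocks CDC20, had 582, 564 and 519.6 in fructose and 657, 675 and 650.2 in glucose. The lowest glucose array stood clear of the highest fructose array, with a difference of -0.25 (SE 0.071, adjusted p = 0.237).

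Members of the BUB branch of the checkpoint had smaller or positive differences, which were not tested against those above. BUB1B, the pseudokinase BUBR1 of the inhibitory complex, had 499.8, 577 and 521 in fructose and 568, 568 and 601 in glucose. Fructose replicates 1 and 3 were below every glucose array and replicate 2 was not, and the difference was -0.12 (95% interval -0.31 to 0.062). BUB1, the kinase that marks centromeric chromatin, differed by -0.0076. BUB3, which docks BUB1 and BUBR1 at kinetochores, was the member of this class with a positive difference, 0.093, and its fructose arrays, between 1281 and 1349, were all above the glucose arrays, between 1225 and 1242. The median of the class on the fructose arrays was -0.20, -0.10 and -0.25, with the glucose arrays between -0.027 and 0.022, so all fructose replicates lay below. With an array left out it stayed between -0.22 and -0.16.

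Kinetochore and centromere genes had a median of -0.14, with 5 of 6 measured genes lower. The Ndc80 complex, the main microtubule coupler of the kinetochore, is a tetramer of NDC80, NUF2, SPC24 and SPC25. SPC25, in its chromatin-facing end, had 289, 310.2 and 257 in fructose and 348, 346 and 347 in glucose. The glucose arrays were almost identical and all above fructose, with a difference of -0.29 (SE 0.085, adjusted p = 0.248). NUF2, in the microtubule-binding end, had 492, 501 and 489.8 in fructose and 589, 543 and 534 in glucose, a difference of -0.17 without overlap (SE 0.069, adjusted p = 0.373). NDC80, its partner, had fructose arrays between 565 and 632 and glucose arrays between 640.3 and 670.2, with -0.11. SPC24, the partner of SPC25, had a positive difference, with fructose arrays between 153 and 170.2 and glucose arrays between 141 and 143 and a difference of 0.16 (95% interval -0.0041 to 0.33). The sign was thus not the same for the 4 subunits, and the contrast between subunits was not tested.

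CENPK, of the constitutive centromere network that links centromeric chromatin to the outer kinetochore, had 405, 412 and 424 in fructose and 474, 483 and 469 in glucose. The arrays within each sugar were close together and the groups did not overlap, with -0.20 (SE 0.062, adjusted p = 0.267). CENPF, a large protein of the outer corona, differed by -0.027 with a 95% interval of -0.17 to 0.12. The class median in fructose was -0.12, -0.10 and -0.17, where the glucose arrays lay between -0.0080 and 0.0036.

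The spindle motors were split more evenly in sign, with 5 of 9 lower and 4 higher and a median of -0.13. KIF15, which can keep spindle poles apart alongside KIF11, had the most negative difference of all members. Its intensities were 222, 235 and 204 in fructose and 274, 283 and 307 in glucose. No array of one sugar reached those of the other, and the difference was -0.39 (SE 0.083, adjusted p = 0.171), or 23.5% less on the linear scale. CENPE, the kinesin that carries chromosomes to the metaphase plate, had 371, 408 and 391 in fructose and 489, 482 and 459 in glucose. It too was without overlap, at -0.29 (SE 0.070, adjusted p = 0.2). KIF11, the plus-end motor Eg5 that pushes the poles apart, had 545, 625 and 555 in fructose and 682, 667 and 656 in glucose. Fructose replicate 2 was nearest to glucose here, and the difference was -0.22 (SE 0.077, adjusted p = 0.312).

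KIF18A, which damps chromosome oscillations, and KIF23, the centralspindlin motor of the midzone, also had all fructose arrays below all glucose arrays, at -0.17 and -0.13. KIF2C, a microtubule depolymerase that corrects attachments, and KIF20A, a midzone motor, lay at 0.0022 and 0.0043. KIF14, a motor of cytokinesis, and KIF4A, a chromokinesin that works with PRC1 and condensin, had all fructose arrays above all glucose arrays. Their differences were 0.045 and 0.16, and KIF4A read between 760.2 and 812 in fructose against 674 to 709.9 in glucose. KIF4A has a near-identical intronless copy, KIF4B, which this probe set may not tell apart.

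Spindle assembly and cytokinesis genes had a median of -0.10, with 6 of 7 lower. NUSAP1, which bundles spindle microtubules near chromatin, had 749, 856 and 782 in fructose and 951, 896 and 900.1 in glucose. The groups did not overlap, with a difference of -0.20 (SE 0.077, adjusted p = 0.334). HMMR, a spindle pole protein that positions TPX2, was the dimmest member, with 79.9, 97.0 and 70.0 in fructose and 95.6, 100.0 and 96.8 in glucose. Fructose replicate 2 lay among the glucose arrays, and the difference of -0.26 had a wide 95% interval, -0.54 to 0.026. Leaving out fructose replicate 3 gave -0.15 for HMMR, and leaving out replicate 2 gave -0.38. PRC1, which cross-links the antiparallel microtubules of the midzone, had 1137, 1181 and 1124 in fructose and 1238, 1217 and 1263 in glucose. Its groups were separate but close, at -0.11. ECT2, the exchange factor that activates RHOA for furrowing, also had separate groups at -0.10. TPX2, an activator of AURKA, CEP55, which recruits the abscission machinery, and ANLN, anillin of the contractile ring, differed by -0.042, -0.035 and 0.043 with overlapping groups.

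The genes of anaphase control had differences near 0. The median of the 4 was -0.016, with 3 lower and 1 higher. Leaving out fructose replicate 1, 2 or 3 gave -0.0091, -0.041 or 0.030. Leaving out glucose replicate 1, 2 or 3 gave -0.024, -0.017 or 0.0060. No member of this class had separate groups. Among all genes 10.0% were separate below and 13.0% above, and among those in the members' intensity range 17.9% and 18.6%. With 4 genes this count says little. PTTG1, securin, which holds separase inactive, was the brightest member, with 2679, 2778 and 2625 in fructose and 2736, 2763 and 2749 in glucose. Its arrays of both sugars overlapped (-0.030, 95% interval -0.18 to 0.12), and the near-identical copy PTTG2 may contribute to the probe set. ESPL1, separase, which cuts cohesin, had 135, 165 and 115 in fructose and 129, 144 and 152 in glucose, and spread widely in fructose (-0.050, 95% interval -0.37 to 0.28). UBE2C, the ubiquitin-conjugating enzyme of the anaphase-promoting complex, had 747, 808 and 706 in fructose and 706, 748 and 773 in glucose (0.021). CDC20, the activator of that complex and the target of the checkpoint, differed by -0.0024 (95% interval -0.15 to 0.14).

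Condensin and chromosome structure genes were all 7 lower in fructose, with a median of -0.12. SMC2, the ATPase core subunit shared by both condensins, had 801, 849 and 806 in fructose and 970.4, 983 and 912 in glucose. The groups were separate, with -0.22 (SE 0.068, adjusted p = 0.262). SMC4, the other ATPase core subunit, differed by -0.042 and its groups overlapped. Of the subunits found in condensin I alone, NCAPG had 883, 943 and 909.7 in fructose and 994, 979 and 999.6 in glucose, separate at -0.12, and NCAPH and NCAPD2 differed by -0.16 and -0.052 with overlap.

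TOP2A, the topoisomerase that untangles sister chromatids, had 1243, 1352 and 1268 in fructose and 1486, 1434 and 1433 in glucose. All fructose arrays were below glucose, at -0.17 (SE 0.067, adjusted p = 0.35). MKI67, which coats mitotic chromosomes and is the usual marker of cycling cells, had 758, 762 and 755 in fructose and 752, 792 and 758 in glucose. The fructose arrays lay within the glucose range, with -0.016 (95% interval -0.16 to 0.13). The class median was -0.069 without fructose replicate 3.

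**Figure D4:**
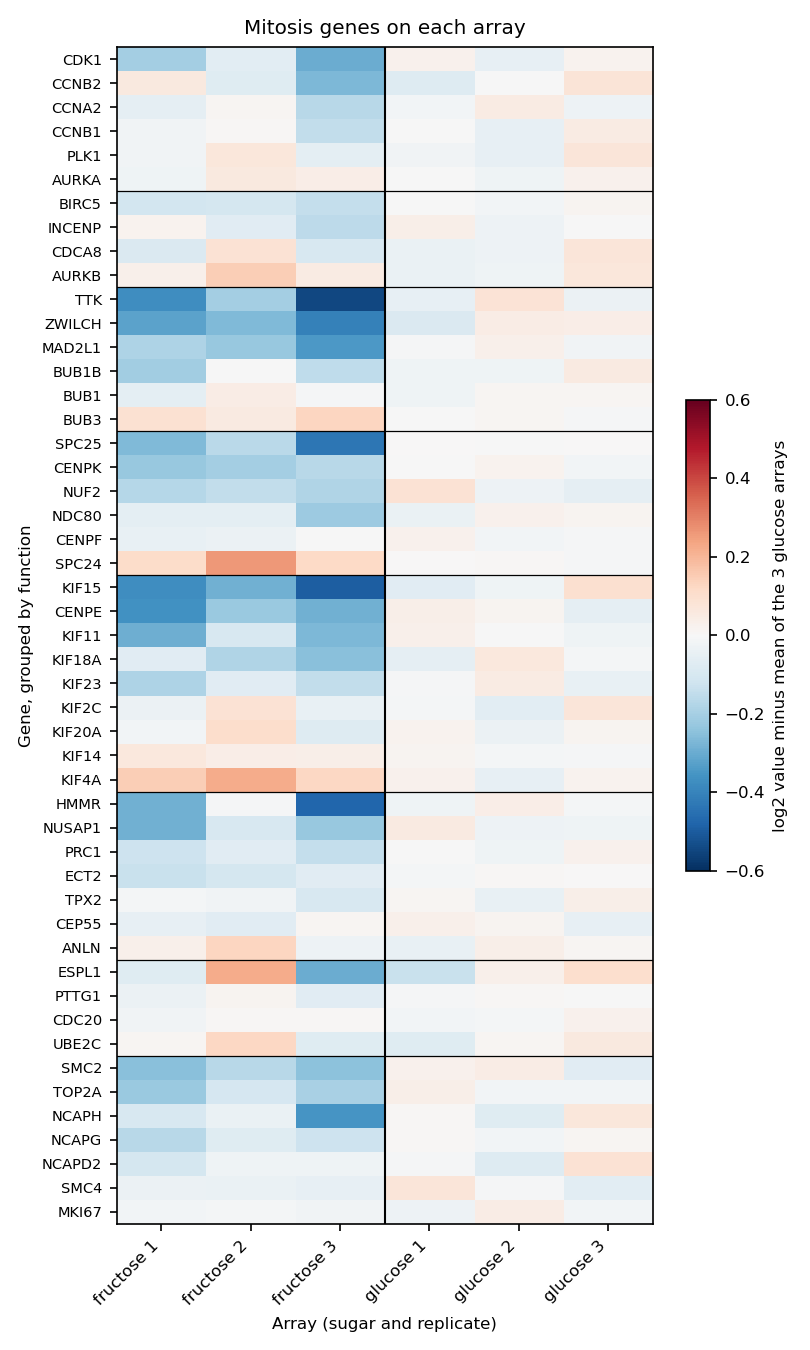
Log2 value of each member on each array minus its mean over the 3 glucose arrays (colour), with arrays in columns and genes in rows grouped by function. Blue rows such as KIF15 (-0.39), TTK (-0.37) and ZWILCH (-0.33) stand beside pale rows such as PLK1 and MKI67, and fructose replicate 2 is paler than fructose replicates 1 and 3 in many rows.

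**Figure D5:**
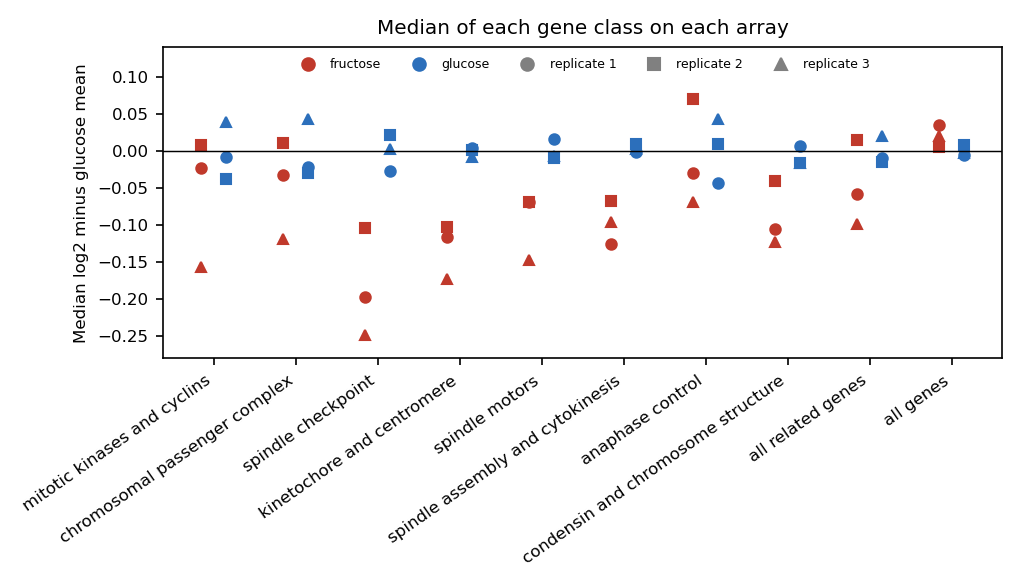
Median over each class of the log2 value minus the glucose mean (y axis) on each array, with symbols for replicates. For the spindle checkpoint, kinetochore, motor, cytokinesis and condensin classes all fructose arrays lie below all glucose arrays. For kinases, passenger complex and anaphase control fructose replicate 2 lies among or above the glucose arrays. For kinases and anaphase control fructose replicate 1 lies among them too.

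The fructose arrays differed in how many members lay low. Fructose replicate 3 was below every glucose array for 34 of the 49 members, against 43.2% of genes in the members' intensity range and 28.7% of all genes. Replicate 1 was below for 30 members, against 32.2% and 24.1%, and replicate 2 for 23, against 29.3% and 28.1%. The order of the arrays was thus the same for the members and for genes in their intensity range. For replicates 3, 1 and 2 the counts were 5, 2 and 1 of 6 in the kinase and cyclin class and 4, 5 and 5 of 6 in the kinetochore class, and the classes were not tested against each other.

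Other genes of mitosis were taken from 5 further lists of 94 genes, of which 91 were measured. None passed over all probe sets in either direction, 61 were lower in fructose and 30 higher, and the median was -0.039. At an unadjusted p under 0.05, 16 were lower and 1 higher, where 5.74% and 8.53% of all genes were. All fructose arrays were below all glucose arrays for 29 (31.9%), against 10.0% of all genes and 17.9% of those in the members' intensity range. They were above for 7 (7.69%), against 13.0% and 18.6%. The related genes reached down to a mean intensity of 42.3, below the dimmest member at 89.9, so the members' range does not cover all of them. Cohesin and condensin II genes were lower in fructose for 16 of 16, with a median of -0.096, where 43.5% of all genes and 49.1% of those in the members' intensity range were lower. All fructose arrays were below all glucose arrays for 8 of the 16, to be read against the same 10.0% and 17.9%. The anaphase-promoting complex list had 8 of 14 lower with a median of -0.020, the kinase and regulator list 9 of 18 with -0.013, the checkpoint and kinetochore list 17 of 26 with -0.048, and the spindle and cytokinesis list 11 of 17 with -0.028.

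Named by smallest p, CDKN3, a phosphatase that acts on cyclin-dependent kinases, had 488, 492 and 443 in fructose and 612, 589.7 and 591 in glucose, separate at -0.34 (SE 0.071, adjusted p = 0.169). CENPH, a direct partner of CENPK in the inner kinetochore, had 45.9, 50.2 and 38.4 in fructose and 66.1, 61.5 and 59.2 in glucose. It was dim but separate, at -0.48 (SE 0.11, adjusted p = 0.189). CENPU, of the same network, differed by -0.32, the cohesin subunit STAG2 by -0.28 and the cohesin regulator PDS5B by -0.26, all with separate groups. Of the transcription factors that drive late cell cycle genes, FOXM1 had 559, 562 and 538 in fructose and 543, 541 and 545 in glucose, overlapping at 0.026 (95% interval -0.12 to 0.17). MYBL2, which joins the MuvB complex, had 122, 139 and 112 in fructose and 146, 144 and 162 in glucose. Its groups did not overlap, with -0.28 (SE 0.099, adjusted p = 0.314).

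Whether any member passed depended on how variances were modelled and on which probe sets were tested. With an intensity trend and robust variances 5 members passed, all lower in fructose, where 0.762% of probe sets passed in that direction and 0.914% in the other. They were KIF15 (adjusted p = 0.0321), CENPE (0.0327), ZWILCH (0.0369), MAD2L1 (0.0465) and SMC2 (0.0474), and of the related genes CDKN3 and CENPU passed. Among bright probe sets alone KIF15 passed (0.0493), where 1.01% passed in that direction and 1.30% in the other, and CDKN3 passed as well.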

How the data were processed

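RNA from 6 cultures of MDA-MB-231 cells was measured on 1 array each. The authors deposited an RMA intensity for every probe set on every array, per the submitters' processing notes. The RMA version, program, build and filters were not given in the sources. RMA corrects background, normalizes between arrays and summarises probes. Since they reach 9287, the values were treated as linear and converted to log2, with no pseudocount.

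Of 32321 rows, 4091 with identifiers below the lowest annotated one were taken to be controls and left out, which left 28230. Names came from the platform annotation, and a gene was represented by its brightest probe set with 1 symbol (18404 genes).

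Fructose minus glucose was fitted in R 4.3.3 by limma 3.58.1, using lmFit and eBayes on the sugar alone. P-values are two-sided and were adjusted by Benjamini-Hochberg over all 28230 probe sets. The fit was also run on simulated tables with independent noise and planted changes larger than the difference of any member. That run therefore does not bear on changes of the size seen in the members. Replicates were batches adapted separately, per the labels. Members, classes, lists and rules were chosen with earlier results of these data known. Array values are given for the 3 members of each class with the smallest p and for MKI67, TOP2A, CDK1, CCNB1, BUB1B, PLK1 and AURKA. Of the related genes the 5 with the smallest p, FOXM1 and MYBL2 were named. Other members are given by their difference, and ranges are given for some of them chosen after their values were seen. Alternatives were a replicate block, leaving out each array, quantile normalization again, median centring, array weights, bright probe sets, an unmoderated test, robust variances with an intensity trend, representative probe sets, and averaging the probe sets of a gene.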

Additional observations from a re-analysis of the deposited data

How the results depend on the processing

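The count of probe sets past an adjusted p of 0.05 was 1 in the fit reported, 325 among bright probe sets alone, 473 with an intensity trend and robust variances, 35 over representative probe sets alone and 0 with the unmoderated test. For members it was 1 among bright probe sets and 5 with the trend, for related genes 1 and 2, and 0 for both under every other alternative run. The members' median was -0.070, between -0.11 and -0.059 with an array left out. That of the kinetochore class ran from -0.16 to -0.11, that of the condensin class from -0.14 to -0.069, and that of the cytokinesis class was -0.13 after median centring. Of 29 members followed singly, 5 turned sign in 11 of 435 values, none past the threshold, and the turned values lay between -0.031 and 0.075. With an array left out PLK1 ran from -0.038 to 0.035, UBE2C from -0.031 to 0.067, ESPL1 from -0.18 to 0.075 and MKI67 from -0.031 to 0.0064. PLK1 was 0.0038 after quantile normalization, and after median centring UBE2C was -0.0048 and AURKA -0.0017. The cause was not tested. Lower members numbered 35 to 42 with an array left out and those with separate groups below 20 to 26. Same-numbered arrays did not deviate together (correlations of -0.026, -0.021 and -0.054), and the replicate block left the median at -0.070 and the calls at 1 probe set and 0 members.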
